A study of Homo sapiens with 8 samples.

Results

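The ATP-binding cassette (ABC) transporters are a family of membrane proteins built around a nucleotide-binding domain, and their human genes carry symbols that give a subfamily letter from A to G and a number. The genes described here are those of the deposited count table whose symbol is ABC, a letter from A to G and a number, which gave 42 of the 16829 genes listed. Of these, 29 reached 1 CPM, a unit that relates a gene's counts to the library total, in at least 1 library and 13 did not. The rule takes symbols only, so ABC proteins with other names, such as the peptide transporter subunits TAP1 and TAP2, were not members.

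Most ABC transporters use ATP hydrolysis to move a substrate across a membrane, and which substrate differs widely between subfamilies. Members of A and G export sterols and phospholipids, members of B, C and G expel drugs and conjugates, other B members serve the inner mitochondrial membrane or the lysosome, and D members load fatty acids into peroxisomes. The E and F proteins have no membrane-spanning part and act on the ribosome. In colon epithelium the efflux pumps of the apical and basolateral membranes are known for limiting the uptake of dietary compounds and drugs, and in colorectal tumours for drug resistance.

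RNA-seq was run on RKO and SW480, which are established human colorectal cancer lines, in 4 groups of 2 libraries each. In RKO, cells overexpressing CYP1B1, a cytochrome P450 that oxidises estrogens and aromatic hydrocarbons, were set against control cells with normal CYP1B1. In SW480, cells carrying a hairpin that targets CYP1B1 (shCYP1B1) were compared with cells carrying a non-targeting hairpin (shNT). All cells received lentivirus according to the protocols, only 1 hairpin was used, and the labels do not say whether the cells were clones. They also do not say whether the 2 libraries of a group come from separate cultures; the p-values therefore reflect the spread of these libraries alone, and that spread may be technical.

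The libraries held between 31550173 and 34921085 counts. CYP1B1 stood at 0.686 and 0.701 normalised CPM in the RKO control libraries and at 437 and 519 with overexpression, and at 1.44 and 2.20 with shNT against 0.367 and 0.301 with shCYP1B1, in the order the labels give. The log2 fold changes of CYP1B1 were 9.42 (SE 0.18) and -2.44 (SE 0.31). Normalised CPM are CPM with libraries scaled to each other by TMM factors. Over the 29 members at 1 CPM, the median log2 gap between the 2 libraries of a group was 0.186 in RKO overexpression, the widest, and between 0.079 and 0.099 in the other groups. Of 10 markers of colon epithelium, CDX1, LGALS4 and MUC2 were at 0 in the RKO control libraries and the summed level was 250.1 to 263.8 normalised CPM, compared with 5077 to 5290 in SW480 shNT, where CDX1 was at 0. Markers of immune, stromal and endothelial cells summed to between 6.58 and 27.5 normalised CPM over all libraries.

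Since ABCA1, ABCG1 and ABCG4, which export sterols, all rose in SW480 shCYP1B1 (values are given with that comparison), stretches from before the starts of ABCA1 and ABCG4 are shown first. They come from the 250 bases before a RefSeq start of each gene, build GRCh38.p14, and read 5′ to 3′ on the strand of the gene. GENCODE release 29 has a longer transcript of each gene whose first exon reaches into those bases, so the runs shown stop where that exon begins. ABCA1 is shown at chr9:104928238-104928405 on the minus strand and ABCG4 at chr11:119148802-119149011 on the plus strand. RefSeq also has a later start for ABCG4, whose window is not shown.
ABCA1: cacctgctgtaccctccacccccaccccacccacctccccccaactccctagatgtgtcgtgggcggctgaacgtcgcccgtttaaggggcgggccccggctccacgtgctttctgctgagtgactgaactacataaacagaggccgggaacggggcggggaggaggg
ABCG4: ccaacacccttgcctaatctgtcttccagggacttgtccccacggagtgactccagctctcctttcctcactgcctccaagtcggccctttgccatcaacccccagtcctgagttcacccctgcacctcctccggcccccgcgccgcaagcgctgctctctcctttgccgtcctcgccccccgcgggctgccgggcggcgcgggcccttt
ABCA1 LXR pattern: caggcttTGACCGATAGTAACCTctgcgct
The last run lies at chr9:104928202-104928231, and its capitals mark a match, on the strand opposite to the gene, to AGGTNA and GGTCA with any 5 bases between. This is a spelling of the direct repeat bound by the liver X receptors (LXR) that was written with the element of ABCA1 already known. The match began 69 bases before the RefSeq start of ABCA1 and lay inside the first exon of the longer GENCODE transcript.

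RefSeq promoter windows (250 bases before the start and 50 after) were matched by symbol for 33 of the 42 members, which had 51 windows. ABCG1 was not among the 33 and was not searched. On both strands, the LXR pattern stood in 1 of these 51 windows and in 0.0916% of the 34943 windows of all genes. GCGTG, the core bound by the aryl hydrocarbon receptor, stood in 23 of the 51 windows and in 36.5% of all windows, and CACGTG, an E-box that can share end letters with it, in 9 windows and in 7.23%. TGACNNNGC, the core of the NRF2 element, stood in 12 of the 51 windows and in 13.3% of all windows. TCACNCCAC, a sterol response element, stood in 0 of the 51 and in 1.12% of all. A match is a stretch of letters and not a measured binding site.

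Levels of different members were set side by side by FPKM, which divides by gene length. ABCE1, which splits ribosomes for recycling, had the highest mean FPKM of the family in RKO control (47.7), in RKO overexpression (48.2) and in SW480 shCYP1B1 (38.3), and came after ABCF1, a translation initiation factor, in SW480 shNT (40.2 against 41.8). Exons of ABCE1, and of ABCB9 and ABCC10, overlap genes on the opposite strand, and whether counting used the strand is not given in the sources used here. ABCA2, a lipid transporter of late endosomes, ranked 2nd in RKO control at 26.8 FPKM and 8th in SW480 shNT at 14.97. Members at 1 CPM or more in both libraries of a group numbered 23 in RKO control, 23 in RKO overexpression, 27 in SW480 shNT and 29 in SW480 shCYP1B1. All 23 members that reached 1 CPM in RKO also reached it in SW480. In SW480 alone 6 reached it: ABCA1, ABCB1, ABCB4, ABCC3, ABCC8 and ABCG1. ABCA1 lay close to the cutoff, at 0.697 and 0.847 CPM in RKO control and 1.49 and 1.42 in SW480 shNT.

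**Figure D1:**
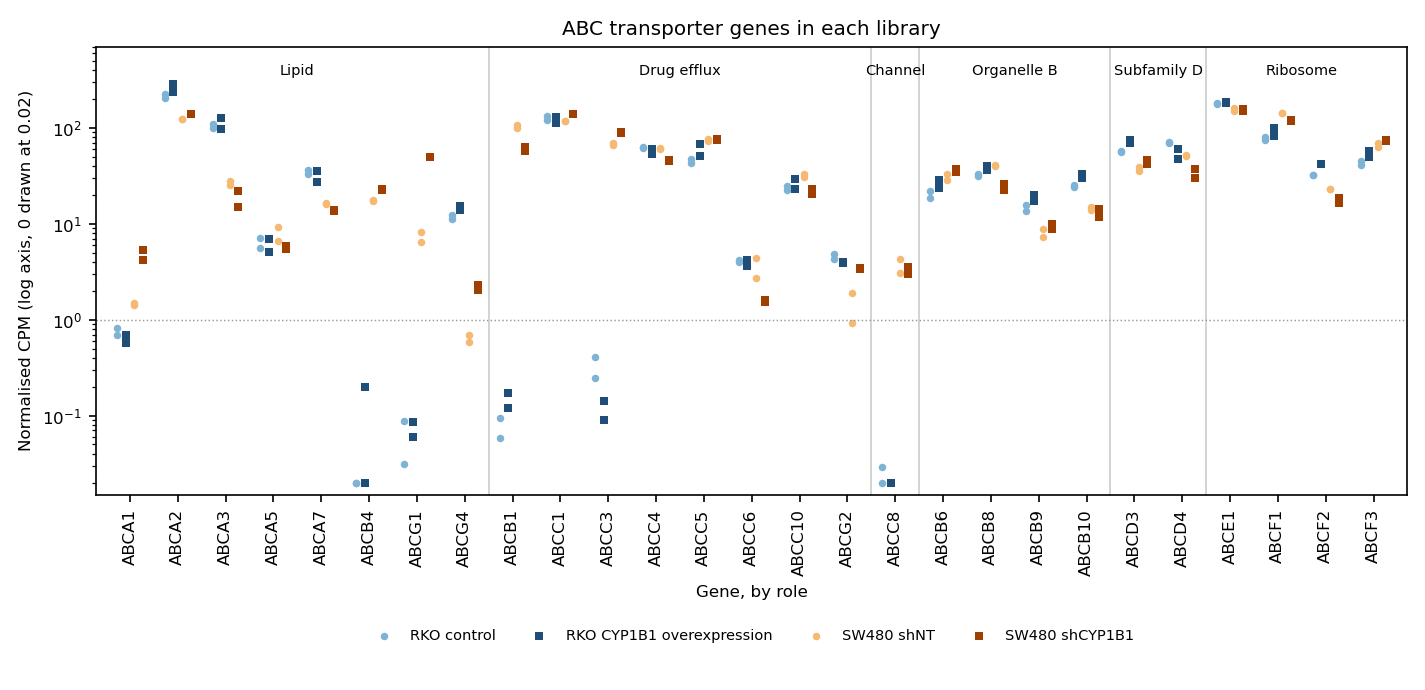
Normalised CPM (log axis) of members that reached 1 CPM, grouped by role (organelle B: mitochondrial and lysosomal B members), with 1 point per library, circles for control groups and squares for manipulated groups; a level of 0 is drawn at 0.02 and the dotted line marks 1. ABCA1, ABCB1, ABCB4, ABCC3, ABCC8 and ABCG1 lie under 1 in all 4 RKO libraries and above 1 in all 4 SW480 libraries, and ABCG1 shows the widest gap between the SW480 groups.

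The 13 members under 1 CPM in every library were ABCA4, ABCA6, ABCA8, ABCA9, ABCA10, ABCA12, ABCA13, ABCC2, ABCC9, ABCC11, ABCC12, ABCD2 and ABCG8. Of these, 9 had at most 10 counts in any library and were too low to test, and ABCA4, ABCA10, ABCC2 and ABCC11 entered the test. ABCA10, a lipid transporter whose exons overlap those of ABCA5 on the same strand, had 6 and 23 counts in RKO control, 2 and 15 with overexpression and 0 in all 4 SW480 libraries. ABCG8, the sterol pump partner known from liver and small intestine, had 1 count in each SW480 shCYP1B1 library and 0 elsewhere.

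The next question was how the family differed between the control groups of both lines, where line, vector and culture cannot be told apart. In SW480 shNT the drug pump ABCB1 (P-glycoprotein), the phosphatidylcholine transporter ABCB4 beside it, the organic anion pump ABCC3, the sulfonylurea receptor ABCC8 and the sterol exporter ABCG1 stood far above RKO control, where each was near 0. Higher in RKO were the sterol exporter ABCG4, the surfactant lipid transporter ABCA3, the drug pump ABCG2 (breast cancer resistance protein), the lipid transporter ABCA7 and the lysosomal peptide transporter ABCB9. In these bulk libraries, fewer cells with a transcript and less of it per cell cannot be told apart.

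ABCB1 (chr7:87503633-87713323, minus strand, GRCh38) had 3 and 2 counts in the RKO control libraries and 3482 and 3671 in SW480 shNT, a ratio of 1330 after division by library totals (95% exact interval 569.6 to 4097, for counting error only). ABCC3 had 8 and 14 counts in RKO control against 2447 and 2289 (ratio 200.1, interval 132 to 319.6). ABCG1 had 1 and 3 counts against 284 and 223 (ratio 117.8, interval 45.7 to 434.1). Every SW480 library of these genes was thus above every RKO library by a wide margin. ABCB4 had 0 counts in both RKO control libraries and 607 and 619 in SW480 shNT, which is at least 379.9-fold higher when 3 counts over the group are taken as the floor. ABCC8 had 0 and 1 counts against 149 and 106 (ratio 237, interval 42.2 to 9399).

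In the other direction, ABCG4 stood at 12.4 and 11.1 normalised CPM in RKO control and at 0.692 and 0.580 in SW480 shNT. ABCA3 stood at 110.2 and 99.6 against 25.4 and 27.9. ABCG2 stood at 4.27 and 4.82 against 0.923 and 1.88. The control libraries of both lines did not overlap for any of these genes, which the rule that named them asked for. On the log2 scale, ABCG4 was lower by 4.20 in SW480 shNT (SE 0.23, adjusted p 1.22e-08 by edgeR's quasi-likelihood test with Benjamini-Hochberg adjustment), ABCA3 by 1.98 (SE 0.16) and ABCG2 by 1.69 (SE 0.34). ABCA7 (1.09 lower, SE 0.14) and ABCB9 (0.85 lower, SE 0.17) followed. In this comparison 27 of the 33 members tested passed the test at an adjusted p of 0.05, 13 higher and 14 lower in SW480, beside 76.8% of all genes tested (41.2% higher and 35.6% lower). ABCC1 (log2 difference -0.10, adjusted p 0.304) and ABCC4 (-0.03, adjusted p 0.788), pumps for conjugates and cyclic nucleotides, were among the 6 that did not pass.

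**Figure D2:**
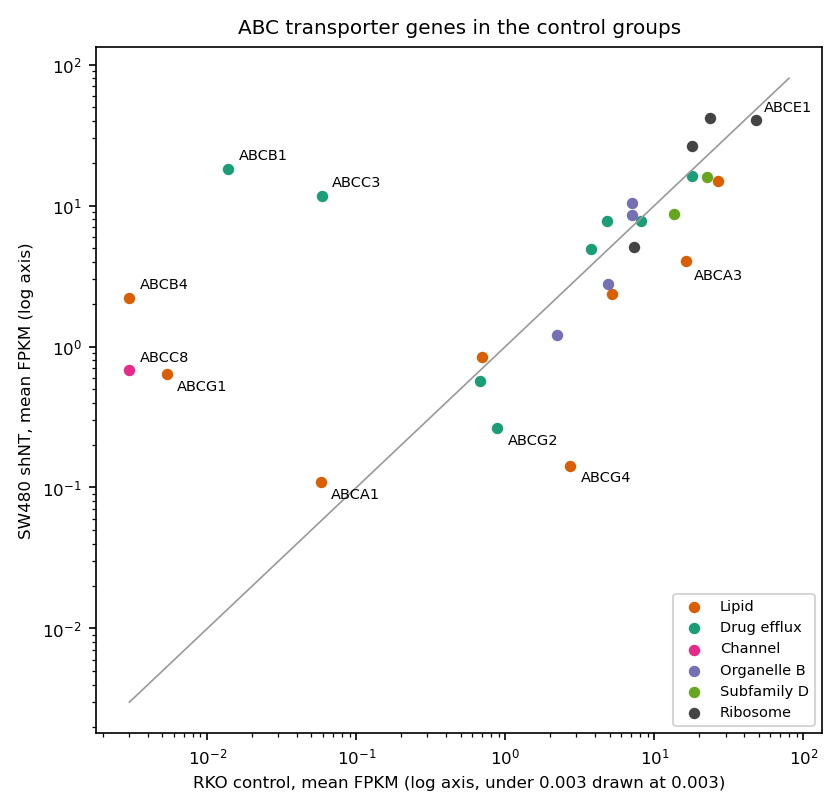
Mean FPKM of members in RKO control (x, log axis) and SW480 shNT (y, log axis), 1 point per gene coloured by role, with the line of equal level; values under 0.003 are drawn at 0.003. ABCB1, ABCB4, ABCC3, ABCC8 and ABCG1 lie far above the line in the left part, and ABCG4 and ABCA3 lie below it. ABCB4 and ABCC8 are drawn at 0.003 on the x axis.

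CYP1B1 overexpression in RKO was accompanied by small changes, and 9 of the 33 members tested passed the test, beside 27.6% of all 14157 genes tested. Among them 6 were higher, which included the peroxisomal fatty acid transporter ABCD3, the nucleotide pump ABCC5, the ribosome-associated ABCF2 and ABCF3, and the lipid transporter ABCA2. The 3 lower were ABCD4, which serves lysosomal cobalamin export, and ABCC3 and ABCA4 at very low counts. For all genes tested 13.8% were higher and 13.8% lower, and the median log2 fold change was 0.00, against 0.16 over the 33 members tested. In these libraries 1 of 8 tested markers of colon epithelium rose (KRT8) and 0 fell, with summed levels of 282.6 to 298.3 normalised CPM under overexpression. Of the markers of other cell types, COL3A1 rose, 1 of 8 tested, and they summed to 6.58 to 11.3 in the controls, where CD3E and CD14 were at 0, and to 11.8 to 13.8 with overexpression. The part of these markers was not tested.

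ABCD3, which imports branched and long chain acyl groups into peroxisomes, stood at 56.7 and 57.6 normalised CPM in the control libraries and at 69.8 and 74.5 with overexpression. Both overexpression libraries were above both controls (log2 fold change 0.34, SE 0.09, adjusted p 0.0157). It missed the test without control replicate 1 (0.33, adjusted p 0.0939) and without control replicate 2 (0.35, adjusted p 0.086). ABCD4 moved the other way, from 70.2 and 71.8 to 59.8 and 48.1 normalised CPM (-0.40, SE 0.12, adjusted p 0.0295). It missed the test without control replicate 1 (-0.41, adjusted p 0.114), control replicate 2 (-0.38, 0.157), overexpression replicate 2 (-0.25, 0.0585) or either shNT library (-0.39, 0.0566 and 0.0567). The ABCD4 call was also lost with RKO fitted alone (0.0563) and with limma on FPKM at each of 3 settings, a pseudocount of 1 or 0.1 and 1 with no filter (0.0501, 0.052 and 0.0881). Exons of ABCD4 overlap those of another annotated gene, AC005519.1, on the same strand, and reads of both may have been mixed.

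Other peroxisomal genes were counted from a list of 25 for biogenesis and beta-oxidation. In RKO, 3 rose and 1 fell (13.8% each way over all genes tested), with a median log2 fold change of 0.06. The rises included the thiolase ACAA1 (0.42, SE 0.09) and the sterol carrier SCP2 (0.37, SE 0.10). In SW480, 5 rose and 7 fell (25.3% each way over all genes tested), with a median of -0.06.

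Of the 4 members that act on the ribosome, ABCF2 stood at 32.1 and 32.6 normalised CPM in RKO control and at 42.3 in each overexpression library (log2 fold change 0.39, SE 0.10, adjusted p 0.0158). ABCF3 stood at 45.8 and 41.5 against 50.1 and 57.2 (0.30, SE 0.10, adjusted p 0.0368). Neither gene's libraries overlapped between the groups, which the rule that named them asked for. ABCF2 missed the test without control replicate 1 (adjusted p 0.0894) or control replicate 2 (0.0841). ABCF3 did so without control replicate 1 (0.37, adjusted p 0.0677), control replicate 2 (0.23, 0.245), overexpression replicate 2 (0.20, 0.0967) or any 1 SW480 library (0.31, 0.0581 to 0.0671), and with RKO fitted alone (0.101) and with limma at 3 settings (0.0521 to 0.0766). ABCE1 stood at 176.6 and 184.5 against 182.5 and 187.3, with overlapping groups (0.03, SE 0.07, adjusted p 0.769). ABCF1 stood at 80.7 and 75.9 against 82.6 and 99.8 and did not pass (0.22, SE 0.09, adjusted p 0.0915). In a list of 20 genes of ribosome recycling and stalled ribosome response, 1 rose and 5 fell in RKO (13.8% each way over all genes tested). The partner of stalled ribosomes GTPBP2 fell from 390.5 and 423.4 to 144.3 and 84.2 normalised CPM (-1.83, SE 0.18).

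Among pumps for drugs and conjugates in RKO, ABCC5, which exports cyclic nucleotides and folates, stood at 47.5 and 42.8 normalised CPM in the controls and at 51.0 and 67.7 with overexpression. The groups did not overlap, though overexpression replicate 1 was close to the higher control. Its log2 fold change was 0.39 (SE 0.12, adjusted p 0.0289), and 0.18 (adjusted p 0.134) without overexpression replicate 2. It also missed the test without control replicate 1 (0.47, adjusted p 0.0725), control replicate 2 (0.32, 0.211) or any 1 SW480 library (0.41, 0.0579 to 0.0609), with RKO fitted alone (0.102) and with limma at 3 settings (0.0945 to 0.143). ABCC3 had 8 and 14 counts in the controls and 5 and 3 with overexpression, a ratio of 0.349 (exact interval 0.134 to 0.813). It passed the test (log2 fold change -1.47, SE 0.45, adjusted p 0.0309) but not without control replicate 2 (-1.07, adjusted p 0.33) or overexpression replicate 2 (-1.19, 0.159), nor with limma at 3 settings (0.0932 to 0.713). The pump ABCC1 stood at 133.1 and 120.1 normalised CPM against 111.6 and 129.6 (-0.07, SE 0.08, adjusted p 0.583). ABCG2 stood at 4.27 and 4.82 against 3.90 and 4.01 (-0.20, SE 0.31, adjusted p 0.684). ABCB1 had 3 and 2 counts against 6 and 4 and ABCC2, an apical pump for conjugates, 26 and 21 against 31 and 12, and neither passed the test (adjusted p 0.368 and 0.896). None of ABCB1, ABCC1, ABCC2 and ABCG2, the pumps best known from drug resistance, passed the test in RKO, beside 27.6% of all genes tested. At the few counts of ABCB1 (ratio 1.92, exact interval 0.597 to 7.15) and ABCC2, a miss does not mean no change. Without overexpression replicate 2, ABCC1 was at -0.18.

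For lipid export in RKO, ABCA2 stood at 223.8 and 204.7 normalised CPM in the controls and at 236.1 and 285.6 with overexpression (log2 fold change 0.28, SE 0.09, adjusted p 0.0345). The groups did not overlap. The test was missed without control replicate 1 (0.35, adjusted p 0.0701), control replicate 2 (0.22, 0.244), overexpression replicate 2 (0.14, 0.0748) or any 1 SW480 library (0.30, 0.0709 to 0.0737), with RKO fitted alone (0.129) and with limma at 3 settings (0.077 to 0.111). ABCA4, the retinal transporter of photoreceptors, had 6 and 11 counts in the controls and 0 in both overexpression libraries, at least 5.91-fold lower (adjusted p 0.0183). Its call was lost without any 1 RKO library (adjusted p 0.0535 to 0.113) and with limma at 3 settings (0.105 to 0.375). ABCA1 stood at 0.686 and 0.818 normalised CPM against 0.688 and 0.568, with overlap (-0.26, SE 0.41, adjusted p 0.694), and ABCG1 had 1 and 3 counts against 3 and 2 (adjusted p 0.883). ABCG4 stood at 12.4 and 11.1 against 15.2 and 14.0 normalised CPM and did not pass (0.32, SE 0.18, adjusted p 0.215).

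None of the 5 mitochondrial and lysosomal B members passed the test in RKO, beside 27.6% of all genes tested. The porphyrin transporter ABCB6 stood at 22.1 and 18.8 normalised CPM against 23.8 and 28.7 (log2 fold change 0.36, SE 0.13, adjusted p 0.0634), and ABCB10, which serves heme synthesis, at 24.2 and 25.6 against 30.4 and 33.2 (0.35, SE 0.13, adjusted p 0.0623). Exons of ABCB6 overlap those of another annotated gene, AC068946.2, on the same strand, and reads of both may have been mixed. Without overexpression replicate 1 both ABCB6 (0.49, adjusted p 0.0029) and ABCB10 (0.42, adjusted p 0.0198) passed. Of 30 other genes of heme synthesis and iron-sulfur assembly, 8 rose and 1 fell in RKO (13.8% each way over all genes tested). The rises included NUBP2 (0.61, SE 0.11) and coproporphyrinogen oxidase, CPOX (0.55, SE 0.10).

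**Figure D3:**
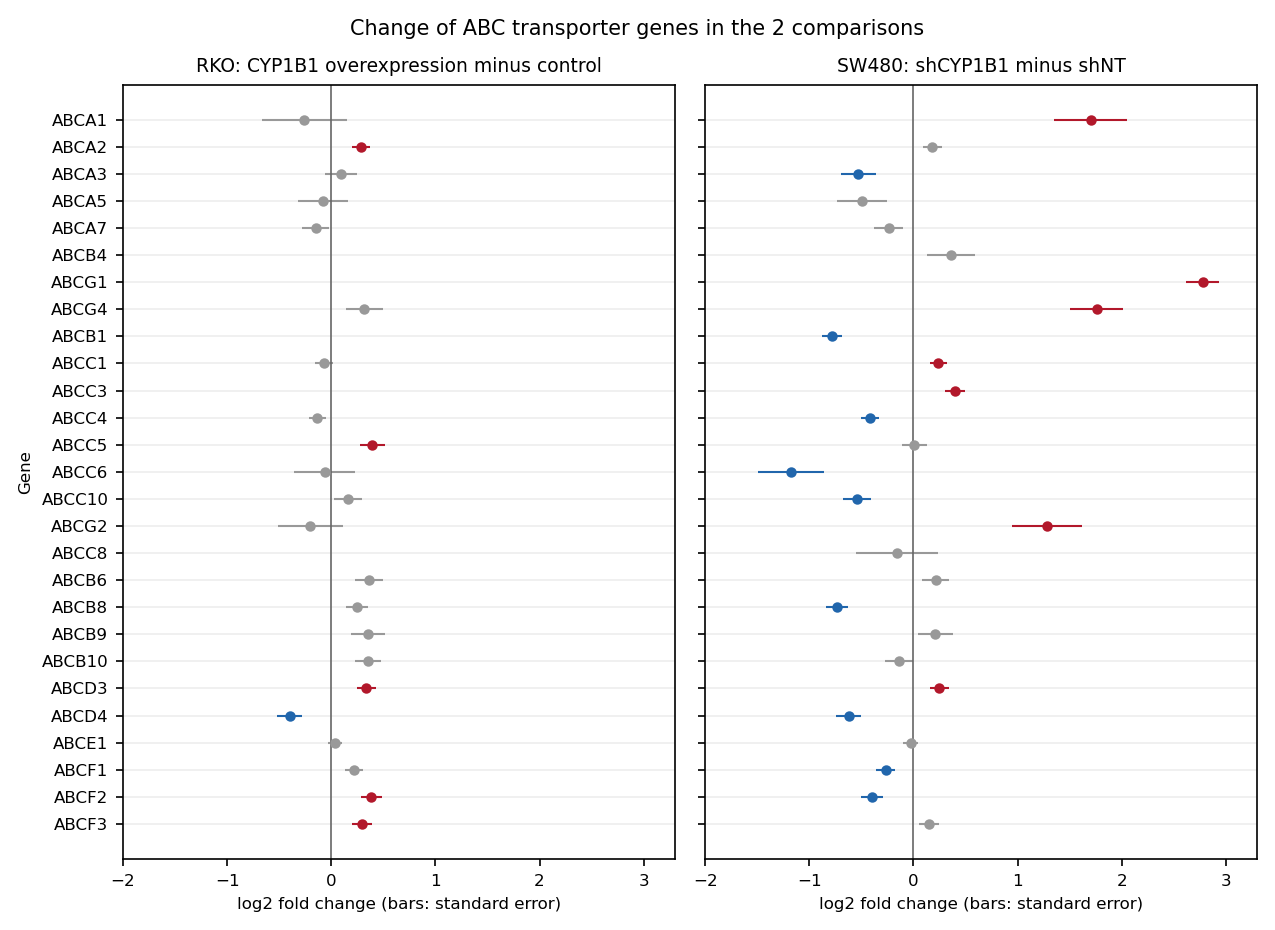
Log2 fold change (x) of members in RKO, overexpression minus control (left), and in SW480, shCYP1B1 minus shNT (right), with bars for the standard error; red and blue mark higher and lower at an adjusted p under 0.05 and grey the rest. Members with few counts in RKO have no point on the left, where the points lie between -0.40 and 0.39, while ABCG1 reaches 2.78 on the right.

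In SW480 the changes with shCYP1B1 were larger, with 19 of 33 members tested past the threshold, 10 higher and 9 lower, beside 50.6% of all genes tested (25.3% higher and 25.3% lower). The sterol exporters ABCG1, ABCG4 and ABCA1 rose most among members at 1 CPM. ABCG2, ABCC3, ABCD3, ABCC1 and the low-count ABCC2 were among the others that rose. The falls were in ABCC6, ABCB1, ABCB8, ABCD4, ABCC10, ABCA3, ABCC4, ABCF2 and ABCF1. The median log2 fold change was 0.15 over the members tested and -0.00 over all genes tested. In the same libraries 2 of 8 tested markers of colon epithelium rose and 5 fell, among them EPCAM (130.9 and 131.3 to 22.5 and 23.3 normalised CPM) and VIL1 (12.1 and 10.9 to 1.497 and 1.02), while the summed level of all 10 was 5691 to 5736, with KRT8 and KRT18 the 2 that rose. Markers of other cell types summed to 16.4 to 20.5 normalised CPM with shNT and 25.9 to 27.5 with shCYP1B1, and CD3E and COL1A1 rose, 2 of 8 tested. The part of these markers in the changes of the family was not tested.

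ABCG1 (chr21:42199689-42297244, plus strand), which hands cholesterol to lipoproteins, stood at 8.19 and 6.46 normalised CPM with shNT and at 50.1 and 50.4 with shCYP1B1. The groups lay far apart, with a 6.86-fold rise (log2 fold change 2.78, SE 0.16, adjusted p 3.52e-07). By FPKM it went from 0.636, 25th in the family, to 4.23, 16th. ABCA1 (chr9:104781002-104928237, minus strand), which loads cholesterol on apolipoprotein A-I, stood at 1.5 and 1.42 against 4.16 and 5.38 (1.71, SE 0.35, adjusted p 0.00184). ABCG4 (chr11:119149012-119162653, plus strand), a close relative of ABCG1 best known from the brain, stood at 0.692 and 0.580 against 2.05 and 2.29 (1.76, SE 0.26, adjusted p 1.68e-04). Neither gene's groups overlapped, and all 3 passed the test in every one of 18 alternatives (other scaling, filters and tools, a replicate block, SW480 alone, and each library left out), ABCG1 with values from 1.68 to 2.97. The low ends of ABCA1 (0.28) and ABCG4 (0.36) came from log2(FPKM + 1), on which a pseudocount shrinks changes of low genes. With these pumps, ABCA3, the phospholipid transporter of lamellar bodies, went the other way, from 25.4 and 27.9 to 21.9 and 14.97 (-0.53, SE 0.17, adjusted p 0.0206), and to -0.27 (adjusted p 0.248) without shCYP1B1 replicate 2. It also missed the test without shNT replicate 1 (-0.59, adjusted p 0.0666) or shNT replicate 2 (-0.46, 0.145), and with limma without a filter (0.0791). ABCB4 stood at 17.5 and 17.9 against 22.6 and 22.9 and did not pass (0.36, SE 0.23, adjusted p 0.223). ABCA5 (-0.50, SE 0.24, adjusted p 0.106) and ABCA7 (-0.24, SE 0.14, adjusted p 0.173) were lower and ABCA2 (0.18, SE 0.09, adjusted p 0.117) higher, without overlap, and did not pass. Of the 10 lipid members tested, 3 rose and 1 fell (25.3% each way over all genes tested).

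Of 17 sterol genes tested besides the exporters (LXR, SREBP and sterol transport), 10 rose and 4 fell in SW480, with a median log2 fold change of 0.33. Over all genes tested there, 25.3% went each way. The lysosomal cholesterol protein NPC2 rose from 119.5 and 119.9 to 240.9 and 231.2 normalised CPM (0.98, SE 0.08), the sterol carrier STARD4 by 0.90 (SE 0.14) and APOE by 0.72 (SE 0.13). NR1H3, which encodes LXR alpha, rose from 25.01 and 23.4 to 34.4 and 36.1 (0.54, SE 0.17, adjusted p 0.0177), and MYLIP, a known LXR target, rose by 0.54 (SE 0.15). Other genes known as LXR targets fell, among them SREBF1 (-0.61, SE 0.08), LPCAT3 (-0.67, SE 0.09) and SMPDL3A (-0.80, SE 0.22). In RKO 4 of the same 17 rose and 2 fell (13.8% each way over all genes tested), with a median of 0.08. There NPC1 fell (-0.68, SE 0.08), and RXRA, the partner of LXR, rose (0.61, SE 0.10).

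The drug pumps of SW480 moved in both directions. ABCB1 fell from 100.4 and 106.4 normalised CPM with shNT to 63.4 and 56.9 with shCYP1B1, with no overlap (log2 fold change -0.78, SE 0.09, adjusted p 4.11e-05). By FPKM it went from 18.2, 5th in the family, to 10.3, 10th. ABCC3 (chr17:50634777-50692252, plus strand) rose from 70.6 and 66.3 to 91.4 and 89.3 (0.40, SE 0.10, adjusted p 0.00462). It missed the test without shNT replicate 2 (0.36, adjusted p 0.0593) and with limma on log2(FPKM + 0.1) (0.0772). ABCG2 (chr4:88090264-88231322, minus strand) stood at 0.923 and 1.88 with shNT and at 3.42 and 3.43 with shCYP1B1, so the shNT libraries differed more from each other than the shCYP1B1 ones (1.29, SE 0.34, adjusted p 0.00803). Without shNT replicate 1, the lower one, it was 0.87 (adjusted p 0.0702). ABCC1 rose from 118.4 and 118.2 to 138.7 and 140.7 (0.24, SE 0.08, adjusted p 0.0333), a call lost without any 1 SW480 library (adjusted p 0.123 to 0.154), with scaling by library size alone (0.0647) and with limma at 3 settings (0.0869 to 0.102). ABCC2 had 5 and 1 counts with shNT and 20 and 31 with shCYP1B1, a ratio of 8.65 (exact interval 3.71 to 24.7). The model gave 3.10 (SE 0.85, adjusted p 0.00991), and 2.40 (adjusted p 0.0904) without shNT replicate 2 and 2.78 (0.0711) without shCYP1B1 replicate 2, and with limma on log2(FPKM + 1) it missed the test (0.0618).

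ABCC4, an exporter of cyclic nucleotides and prostaglandins, fell from 60.8 and 62.1 to 46.6 and 45.5 normalised CPM (log2 fold change -0.42, SE 0.09, adjusted p 0.00183), and this call, like that of ABCB1, was kept in all 18 alternatives. ABCC10 fell from 30.5 and 32.9 to 20.5 and 23.2 (-0.54, SE 0.14, adjusted p 0.00628) and missed the test without shNT replicate 2 (-0.48, adjusted p 0.0664) or shCYP1B1 replicate 1 (-0.44, 0.0798). ABCC6, the transporter behind ATP release from liver cells, stood at 4.41 and 2.72 against 1.62 and 1.53 (-1.18, SE 0.31, adjusted p 0.00865). It had the largest fall among members at 1 CPM, but the genome holds near-identical pseudogene copies of it, and how reads that match several copies were counted is not given, so its value is uncertain. Without shNT replicate 1 it was -0.78 (adjusted p 0.114), and without shCYP1B1 replicate 2 -1.13 (0.0599). ABCC5 overlapped at 72.5 and 77.6 against 75.1 and 76.0 (0.01, SE 0.12, adjusted p 0.953), and ABCC8, the regulator of ATP-sensitive potassium channels, did too, at 4.30 and 3.07 against 3.02 and 3.58 (-0.16, SE 0.39).

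Of 11 tested receptors and factors known to control transporter genes, 2 rose and 5 fell in SW480, and 2 rose and 4 fell in RKO. Over all genes tested, 25.3% went each way in SW480 and 13.8% in RKO. In SW480, HNF4A rose from 26.6 and 31.7 to 59.4 and 59.0 normalised CPM (log2 fold change 1.02, SE 0.16), while PPARG (-1.58, SE 0.21) and KEAP1, the inhibitor of NRF2 (-1.25, SE 0.10), fell. In RKO, KEAP1 rose (0.47, SE 0.10), and HIF1A (-0.60, SE 0.07), NFE2L2, which encodes NRF2 (-0.60, SE 0.10), and the aryl hydrocarbon receptor AHR (-0.56, SE 0.12) fell. AHR also fell in SW480, from 47.2 and 49.0 to 37.4 and 40.1 (-0.31, SE 0.11, adjusted p 0.0343).

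In the mitochondrial branch of SW480, ABCB8 (chr7:151028422-151047782, plus strand), which serves mitochondrial iron export, fell from 40.9 and 40.3 to 22.6 and 26.3 normalised CPM (log2 fold change -0.73, SE 0.11, adjusted p 1.87e-04). The groups did not overlap, and the call was kept in all 18 alternatives. ABCB8 has exons that overlap AC010973.1 on the opposite strand, and whether counting used the strand is not given in the sources used here. ABCB6 at 28.9 and 33.4 against 37.7 and 34.7 (0.22, SE 0.13, adjusted p 0.189) and ABCB10 at 13.9 and 14.95 against 14.4 and 11.7 (-0.14, SE 0.13, adjusted p 0.407) did not pass. Among 30 other genes of heme synthesis and iron-sulfur assembly, 7 rose and 9 fell (25.3% each way over all genes tested), with a median of -0.07. The iron importer mitoferrin SLC25A37 rose by 1.53 (SE 0.09) and ALAS1, the first enzyme of heme synthesis, by 0.82 (SE 0.08), and ferrochelatase FECH (-1.37, SE 0.13) and UROS (-1.07, SE 0.13) fell.

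In SW480, ABCD3 and ABCD4 moved in the same sense as under overexpression in RKO. ABCD4 fell from 52.7 and 50.6 to 37.2 and 29.8 normalised CPM (log2 fold change -0.62, SE 0.12, adjusted p 0.0014). Its groups did not overlap, and its call was kept in all 18 alternatives. ABCD3 stood at 39.6 and 35.5 against 46.7 and 42.6 (0.25, SE 0.09, adjusted p 0.0396), but missed the test without shNT replicate 2 (0.18, adjusted p 0.271), shCYP1B1 replicate 1 (0.19, 0.244), shCYP1B1 replicate 2 (0.32, 0.0565) or either RKO control library (0.25, 0.0638 and 0.0633). The ABCD3 call in SW480 was also lost with scaling by library size alone (0.0809) and with limma at 3 settings (0.0828 to 0.0891).

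On the ribosome in SW480, ABCF1 fell from 144 and 142 to 117 and 120.7 normalised CPM (log2 fold change -0.27, SE 0.09, adjusted p 0.0257), and the call was lost without any 1 SW480 library (adjusted p 0.119 to 0.182). ABCF2, whose exons overlap the readthrough gene AC021097.2, fell from 23.0 and 23.2 to 16.3 and 18.6 (-0.40, SE 0.11, adjusted p 0.00829). It missed the test without shNT replicate 2 (-0.39, adjusted p 0.0504) or shCYP1B1 replicate 1 (-0.30, 0.0933). ABCE1 again overlapped between groups, at 151.7 and 162.5 against 151.9 and 156.6 (-0.03, SE 0.07, adjusted p 0.769). Of 20 genes of ribosome recycling and rescue, 3 rose and 6 fell (25.3% each way over all genes tested), with the helicase ASCC3 falling by 0.87 (SE 0.09).

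**Figure D4:**
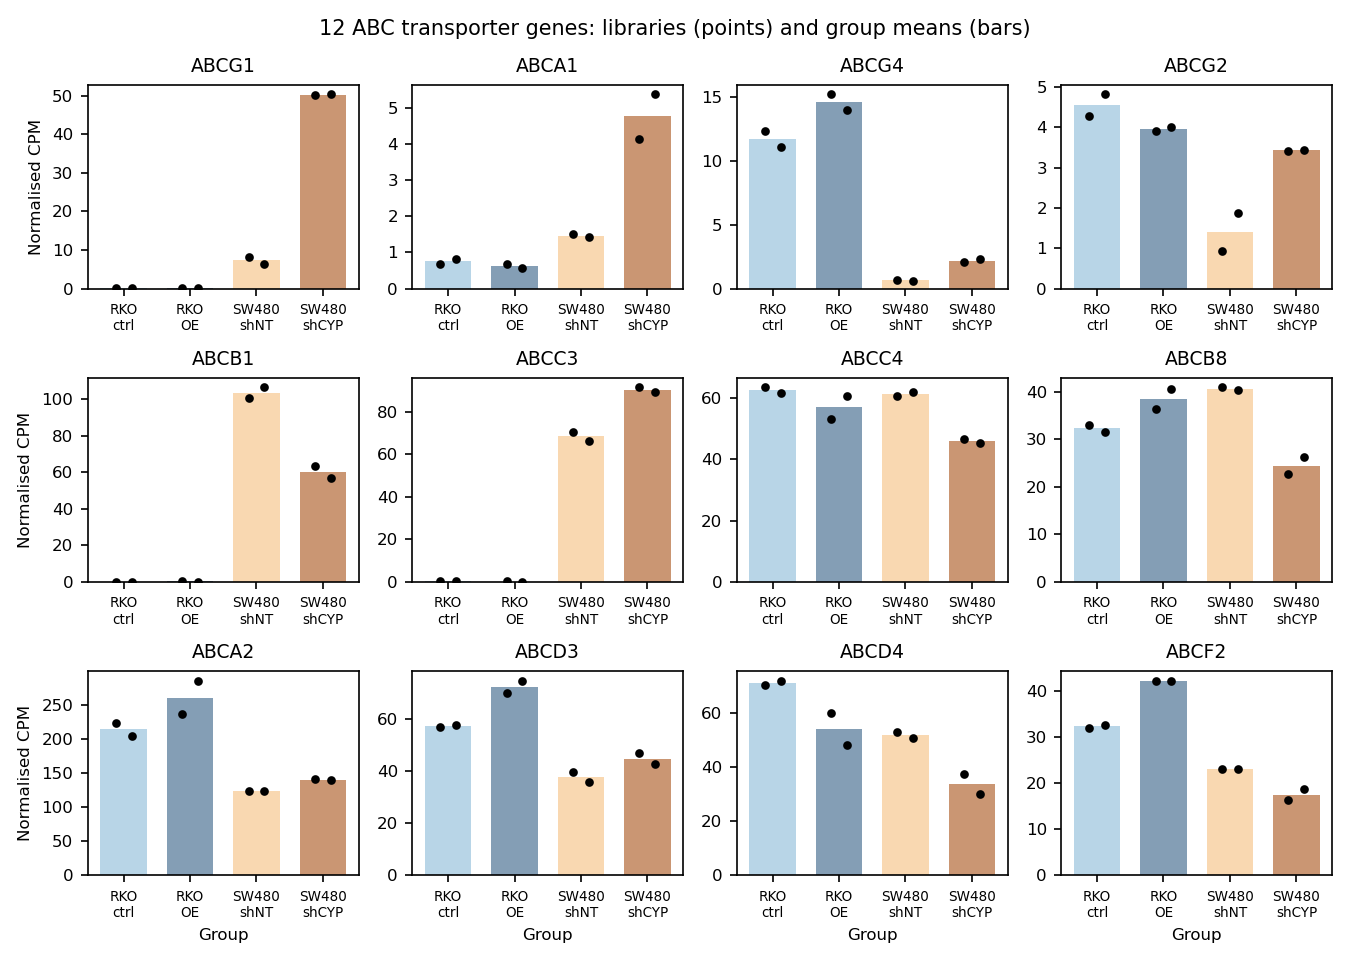
Normalised CPM of 12 members, with a dot for each library, a bar for the mean of each group of 2 libraries, and an axis that starts at 0 in each panel. ABCG1 and ABCA1 are highest in SW480 shCYP1B1, ABCD3 is higher and ABCD4 lower in the manipulated group of each line, and ABCF2 is higher with overexpression in RKO and lower with shCYP1B1 in SW480.

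The last comparison took the CYP1B1-high group minus the CYP1B1-low group as the effect in each line. CYP1B1 stood at 437 and 519 normalised CPM in the RKO high group and at 1.44 and 2.20 in the SW480 high group. The part of CYP1B1 and that of the construct in an effect cannot be told apart. Whether the effect differed between the lines was asked in 1 test of the difference (RKO minus SW480). The effect differed for 14 of 33 members tested, 9 higher in RKO and 5 lower, beside 42.6% of all genes tested (21% higher and 21.6% lower). ABCD4 is an example: its effect was -0.40 in RKO and 0.62 in SW480 (shNT minus shCYP1B1), a difference of -1.02 (SE 0.17, adjusted p 6.84e-04). ABCD3 (0.58, SE 0.13, adjusted p 0.00335) likewise had effects of opposite sign in the lines. Both, with ABCC4 (-0.55, SE 0.12) and ABCG4 (2.08, SE 0.31), were called in all 17 alternatives that allow the comparison.

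When the effect was instead taken as manipulated minus control in each line, a coding added after the data were seen, the difference was 0.09 for ABCD3 (SE 0.13, adjusted p 0.627) and 0.23 for ABCD4 (SE 0.17, adjusted p 0.331), and neither passed. In that coding 12 members passed, beside 37.5% of all genes tested (19.2% higher and 18.3% lower). Overexpression in RKO was above the hairpin effect in SW480 for ABCB8 (0.98, SE 0.15), ABCF2 (0.79, SE 0.15), ABCC10 (0.70, SE 0.19), ABCA3 (0.63, SE 0.23) and ABCF1 (0.49, SE 0.13). It was below for members that included ABCA4, ABCC2, ABCA1 (-1.96, SE 0.54), ABCC3 (-1.87, SE 0.46), ABCG2 (-1.49, SE 0.46) and ABCG4 (-1.45, SE 0.31). ABCG1, with 4 and 5 counts over the RKO groups, differed by -2.51 in that coding but missed the test (SE 0.96, adjusted p 0.059).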

How the data were processed

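RNA-seq of 8 libraries was used, 2 per group, with groups and replicate numbers from the sample titles. The authors deposited raw read counts per gene and FPKM for the same genes; per the submitters' processing notes the genome was GRCh38.p13, while aligner, counter, annotation and strand use were not given in the sources used here. Libraries were made with a stranded mRNA kit, per the labels' protocols, and the unit of the stated treatment time could not be interpreted.

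All tests start from the deposited counts, whose totals were 31550173 to 34921085 per library. Genes were filtered with edgeR's filterByExpr (minimum count 10, minimum total 15), leaving 14157 of 16829, of which 33 were members. TMM scaling and quasi-likelihood models with 1 coefficient per group over all 8 libraries (edgeR 4.0.16, R 4.3.3, 4 residual degrees of freedom) gave log2 fold changes; the SE is the fold change over the square root of F, and Benjamini-Hochberg adjustment covered every gene tested (threshold 0.05). Exact permutation of 2 libraries against 2 cannot go below p = 0.333 and was not used. Ratios of low counts divide summed counts by library totals, with 95% exact intervals and a floor of 3 counts over a group. FPKM served for levels between genes and for limma 3.58.1 on log2(FPKM + 1) or log2(FPKM + 0.1).

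Alternatives were RLE or library size scaling, no filter or 1 CPM in 4 libraries, DESeq2 1.42.0, limma, a test against a fold of 1.5, each line alone, a block for the replicate number, and removal of each library in turn, where the lone library of a group is taken to vary as the rest do. Counts of alternatives that kept a call leave out the test against a fold of 1.5. Steps were tested on simulated data. Positions came from GENCODE release 29 on GRCh38 and promoter windows from RefSeq on GRCh38.p14. Named members are 13 with known roles and those with the largest changes that passed the test without overlap at 1 CPM or more. Others are named to account for the family. Where that rule chose a member, its lack of overlap was asked for and is no separate result. Some genes are not reported here, although counts include them. The members and gene lists were chosen with earlier results of these data known.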

Additional observations from a re-analysis of the deposited data

Results flagged for a closer look

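For 14 members the CYP1B1-high minus CYP1B1-low effect differed between RKO and SW480 by the test of the difference itself (edgeR's quasi-likelihood test with Benjamini-Hochberg adjustment). Values are log2, RKO minus SW480. The part of CYP1B1 and that of the construct in these effects cannot be told apart. CYP1B1 stood at 437 and 519 normalised CPM in the RKO high group and at 1.44 and 2.20 in the SW480 high group. The difference was above 0 for 9 members, among them ABCG1 (3.04), ABCG4 (2.08), ABCA1 (1.45), ABCD3 (0.58), ABCB6 (0.58), ABCA2 (0.46) and ABCF3 (0.45). It was below 0 for ABCA4 (-5.85), ABCC6 (-1.24), ABCD4 (-1.02), ABCC4 (-0.55) and ABCB8 (-0.48). These 14 were 42.4% of the 33 members tested, beside 42.6% of all genes tested, so the family did not stand out. With the effect taken as manipulated minus control in each line, 12 of the 33 members passed. ABCD3 (0.09, adjusted p 0.627) and ABCD4 (0.23, adjusted p 0.331) did not pass in that coding. The value of ABCA4 rests on 0 counts in the RKO overexpression libraries and is a fitted value, not a bound. ABCG1 had 4 counts in RKO control and 5 with overexpression, and it missed the test without RKO control replicate 1 (2.53, adjusted p 0.0573) or overexpression replicate 1 (2.77, adjusted p 0.112). ABCA1 missed the test in 10 of 17 alternatives, among them any single library left out except overexpression replicate 2 (1.27 to 1.64, adjusted p 0.0716 to 0.17) and the replicate block (0.0785), and ABCA4 in 14 of 16, among them any single library left out (adjusted p 0.0545 to 0.108) and the replicate block (0.0563). ABCC6 missed it without either RKO control library, shNT replicate 1 or either shCYP1B1 library (-1.29 to -0.83, adjusted p 0.0681 to 0.188), under the replicate block (0.0549) and with limma without a filter (0.0528). ABCB8 did so without either RKO control library, either shNT library or shCYP1B1 replicate 1 (-0.51 to -0.35, adjusted p 0.0524 to 0.136). ABCB6 missed it without RKO control replicate 2, shNT replicate 1 or shCYP1B1 replicate 1 (0.47 to 0.54, adjusted p 0.0945 to 0.116), and with limma without a filter (0.074). ABCA2 did so without RKO control replicate 2, shNT replicate 2 or shCYP1B1 replicate 1 (0.40 to 0.48, adjusted p 0.0514 to 0.066) and with limma without a filter (0.0579), and ABCF3 without RKO control replicate 2, shNT replicate 2 or either shCYP1B1 library (0.38 to 0.49, adjusted p 0.0502 to 0.0941).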

How the results depend on the processing

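The count of members called in RKO (9) was 4 with limma on log2(FPKM + 1), 3 on log2(FPKM + 0.1), 3 on log2(FPKM + 1) with no filter, 3 with each line on its own and 1 to 15 with a library left out. The test against a fold of 1.5 in edgeR called 0, with 3 at an unadjusted p under 0.05, while DESeq2 without that fold called 9. In RKO the count was 2 without control replicate 1, 1 without control replicate 2, 15 without overexpression replicate 1 and 5 without either shNT library. In SW480 (19) it was 4 at a fold of 1.5 and 11 to 22 with a library left out, the 11 without shNT replicate 2. Differences between the lines (14) were 3 at a fold of 1.5 and 7 to 18 with a library left out: 9 and 7 without RKO control replicates 1 and 2, and 8 without shCYP1B1 replicate 1. Between the control groups (27) the count was 16 at a fold of 1.5 and 22 to 27 with a library left out.

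Same-numbered libraries did not deviate together (Pearson's r across 14157 genes, which are not independent replicates, from -0.012 to 0.026). These correlations cannot tell whether same-numbered libraries were handled together. With the replicate block, 9, 19, 11 and 26 members were called in RKO, in SW480, between the lines and between the controls. The block ended the calls of ABCA1, ABCA4 and ABCC6 between the lines and of ABCA1 between the controls.

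Among members not called, only those chosen for naming by their known roles were followed across the alternatives, and direction reversed for 5 of them. In RKO, ABCC1 ranged from -0.18 to 0.035 with a library left out (0.006 without control replicate 1). ABCC2 ranged there from -0.98 to 0.32 (0.03 without control replicate 1) and ABCG1 from -0.25 to 1.14 (-0.01 without overexpression replicate 1). In SW480, ABCB10 ranged from -0.29 to 0.009 and ABCE1 from -0.065 to 0.028. Other uncalled members were not followed and may reverse too. ABCA3 in RKO, for example, had overexpression libraries at -0.11 and 0.27 on the log2 scale against the control mean. ABCC1 passed the test in RKO at -0.18 (adjusted p 0.0378), without overexpression replicate 2. Calls kept in all alternatives but the fold of 1.5 were 1 of 9 in RKO, 9 of 19 in SW480, 6 of 14 between the lines and 21 of 27 between the controls, where ABCA1, ABCA10, ABCB8, ABCC2, ABCC10 and ABCE1 were lost in at least 1; no call reversed. For the other shifts the cause was not tested; a library left out leaves fewer degrees of freedom, and a fold of 1.5 asks for more.

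CYP1B1 ranged from 9.29 to 9.54 in RKO and from -2.70 to -2.10 in SW480 with a library left out. At 1 FPKM in place of 1 CPM, 24 members were reached. RLE scaling moved the median of all genes between the controls to 0.12, from 0.08. Depth limits genes at a few counts, such as ABCC3 in RKO, whose ratio of 0.349 has an exact interval of 0.134 to 0.813.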

Other observations

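Carriers of drugs and organic ions, a list of uptake carriers that also holds the extrusion carrier SLC47A1, moved in SW480 in both directions. Of 17 tested, 5 rose and 2 fell with shCYP1B1 (edgeR, adjusted p under 0.05), and 2 rose and 0 fell in RKO. Over all genes tested, 25.3% went each way in SW480 and 13.8% in RKO. SLCO2B1, an intestinal uptake carrier, rose from 0.144 and 0.145 to 1.62 and 1.86 normalised CPM (log2 fold change 3.56, SE 0.70), and the extrusion carrier SLC47A1 rose by 1.11 (SE 0.30). SLCO4C1 fell from 1.21 and 0.696 to 0.275 and 0.030 (-2.62, SE 0.91). The folate carrier SLC19A1 rose in RKO from 29.8 and 32.0 to 47.1 and 55.9 (0.74, SE 0.10) and fell in SW480 from 51.3 and 49.7 to 33.5 and 32.0 (-0.63, SE 0.10).

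Glutathione genes, which make the conjugates that C subfamily pumps carry, counted 8 rises and 3 falls of 16 in SW480, and 4 rises and 0 falls in RKO. The shares over all genes tested were 25.3% each way in SW480 and 13.8% each way in RKO. The microsomal transferase MGST1 fell in SW480 from 13.8 and 14.8 to 2.99 and 2.95 normalised CPM (-2.26, SE 0.10). GSTO1 rose in SW480 (0.95, SE 0.09) and in RKO (0.42, SE 0.08). KCNJ11, the pore that pairs with ABCC8, rose in SW480 from 5.91 and 5.30 to 10.6 and 9.53 (0.85, SE 0.17).

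Among ABC proteins named otherwise, TAP2, a subunit of the peptide transporter that feeds antigen presentation, fell in SW480 from 120.8 and 115.1 to 69.6 and 69.2 normalised CPM (-0.77, SE 0.07), and its partner protein TAPBP rose (0.34, SE 0.07). In RKO, TAP1 rose from 53.7 and 54.6 to 66.1 and 73.6 (0.37, SE 0.08) and TAPBP rose by 0.27 (SE 0.07).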
